A study of Macaca fascicularis with 48 samples.

Results

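The 10 genes described here code for chaperones and chaperone cofactors of the endoplasmic reticulum (ER). They are HSPA5, HSP90B1, HYOU1, CALR, PDIA4, PDIA6, DNAJB9, DNAJC3, SDF2L1 and MANF, a list drawn up with earlier results of these data known and matched by gene name, and all 10 were found among the 16842 gene names of the deposited count table. The study measured messenger RNA in cynomolgus monkeys (Macaca fascicularis) that received GS-8873, an inhibitor of hepatitis B virus transcripts, by stomach tube. The dose was 6 mg/kg/day in the treated group and 0 mg/kg/day in the control group, over 13 weeks in each, so the groups shared the dosing procedure. Each of 6 tissues gave 4 control and 4 treated libraries. These were the liver, spinal cord at 3 levels (cervical, thoracic and lumbar) and dorsal root ganglia at 2 (cervical and lumbar), where the cell bodies of sensory neurons lie. Every group held 2 males and 2 females, and the labels used here give no age. The same 4 control animals gave all 6 tissues. The same 4 treated animals gave liver and cord, whereas the treated ganglia came from 6 treated animals, with 2 of the 4 animals differing between the cervical and lumbar set.

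Proteins that enter the secretory pathway fold in the ER with the help of this machinery. When unfolded proteins build up there, the sensors IRE1 (gene ERN1), PERK (EIF2AK3) and ATF6 start the unfolded protein response, which slows protein synthesis and raises transcription of ER chaperones and of genes for ER-associated degradation. Hepatocytes secrete most plasma proteins, and neurons and glia pass membrane and secreted proteins through the same compartment.

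HSPA5 (BiP) is the ER's HSP70 chaperone and holds the sensors inactive while they are bound to it. HSP90B1 (GRP94) is its HSP90 chaperone, and HYOU1 is a large HSP70-like protein that serves BiP as an exchange factor. CALR is a calcium-binding lectin chaperone for glycoproteins. PDIA4 and PDIA6 are protein disulphide isomerases. DNAJB9 and DNAJC3 are J-domain cochaperones of BiP, SDF2L1 is a cofactor of ER J-domain proteins, and MANF is a small ER-resident protein that binds BiP and can be secreted under stress. In the deposited table (Macaca_fascicularis 5.0 build) HSPA5 spans bases 103636057 to 103643029 of chromosome 15, HYOU1 spans 115073438 to 115087397 of chromosome 14, MANF spans 106576283 to 106583764 of chromosome 2, and SDF2L1 spans 30083538 to 30085569 of chromosome 10. MANF and SDF2L1 have the shortest gene models of the 10, with 549 and 870 exon bases, while the others have 1475 to 5852. Of the exon bases of PDIA6, 38.4% also lie in exons of ATP6V1C2 on the other strand, and reads were counted without regard to strand, so the level of PDIA6 is uncertain. The members took 86 to 56444 counts per library, the lowest in SDF2L1.

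Library totals ran from 35453786 to 53480762 counts. Markers fitted the labelled tissue in most libraries: hepatocyte genes summed to 201125 CPM (counts scaled to a common library size) or more in liver, and the sensory neuron gene AVIL lay at 405 to 2173 CPM in ganglia and at 5.59 CPM or lower elsewhere. Lumbar cord control replicate 1 and treated replicate 1 went against their label, with the oligodendrocyte gene MOG at 0.258 and 0.0870 CPM against 330 to 656.6 in the other 6. The mitochondrial share of counts ran from 6.86 to 11.8% in liver, 8.77 to 37.3% in cord and 6.97 to 23.01% in ganglia. It was highest in thoracic cord, where 3 libraries exceeded 30% (control replicate 4 and treated replicates 1 and 4). Treated animal P0905, replicate 4 of liver, cord and cervical ganglia, had the highest share in cervical cord (25.7%), lumbar cord (27.04%) and cervical ganglia (23.01%). In such bulk libraries, fewer cells of a type and less RNA per cell cannot be told apart.

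The first question was how strongly each tissue expressed the chaperones without treatment. Levels per length, in RPKM (scaled reads per kilobase of gene model), were highest for HSP90B1 and CALR in every tissue and lowest for SDF2L1. In control liver, HSP90B1 had 642.5 RPKM, CALR 551.6 and HSPA5 263, at the 99.0th, 98.8th and 97.6th percentiles of 15240 genes. PDIA4 followed with 180.7 RPKM, MANF with 118, DNAJB9 with 111 and PDIA6 with 95.2. DNAJC3 and HYOU1 had 43.1 and 41.7 RPKM in liver, and SDF2L1 had 8.22.

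For 9 of the 10 genes, every control liver lay above every library of the next tissue in order. The share of all genes separated in this way was not computed. HSPA5 had 205 to 323 RPKM in the 4 control livers, whereas its next tissue, cervical ganglia, had 72.0 to 100.6, followed by cervical cord, lumbar cord, lumbar ganglia and thoracic cord, each overlapping its neighbour. PDIA4 was the most uneven, at 145 to 206 RPKM in liver and at most 25.9 in any control library of cord or ganglia. HYOU1 was the least uneven of the 9, at 33.8 to 51.2 RPKM in liver against 21.2 to 32.2 in cervical ganglia. SDF2L1 was the exception: its mean was highest in thoracic cord (9.64 RPKM, range 4.36 to 15.4), which overlapped liver (6.75 to 9.84). Thoracic cord had the lowest mean of HSPA5, HSP90B1 and HYOU1 among the 6 control tissues, and the highest mean of MANF outside liver (57.0 RPKM, range 34.5 to 75.5).

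**Figure D1:**
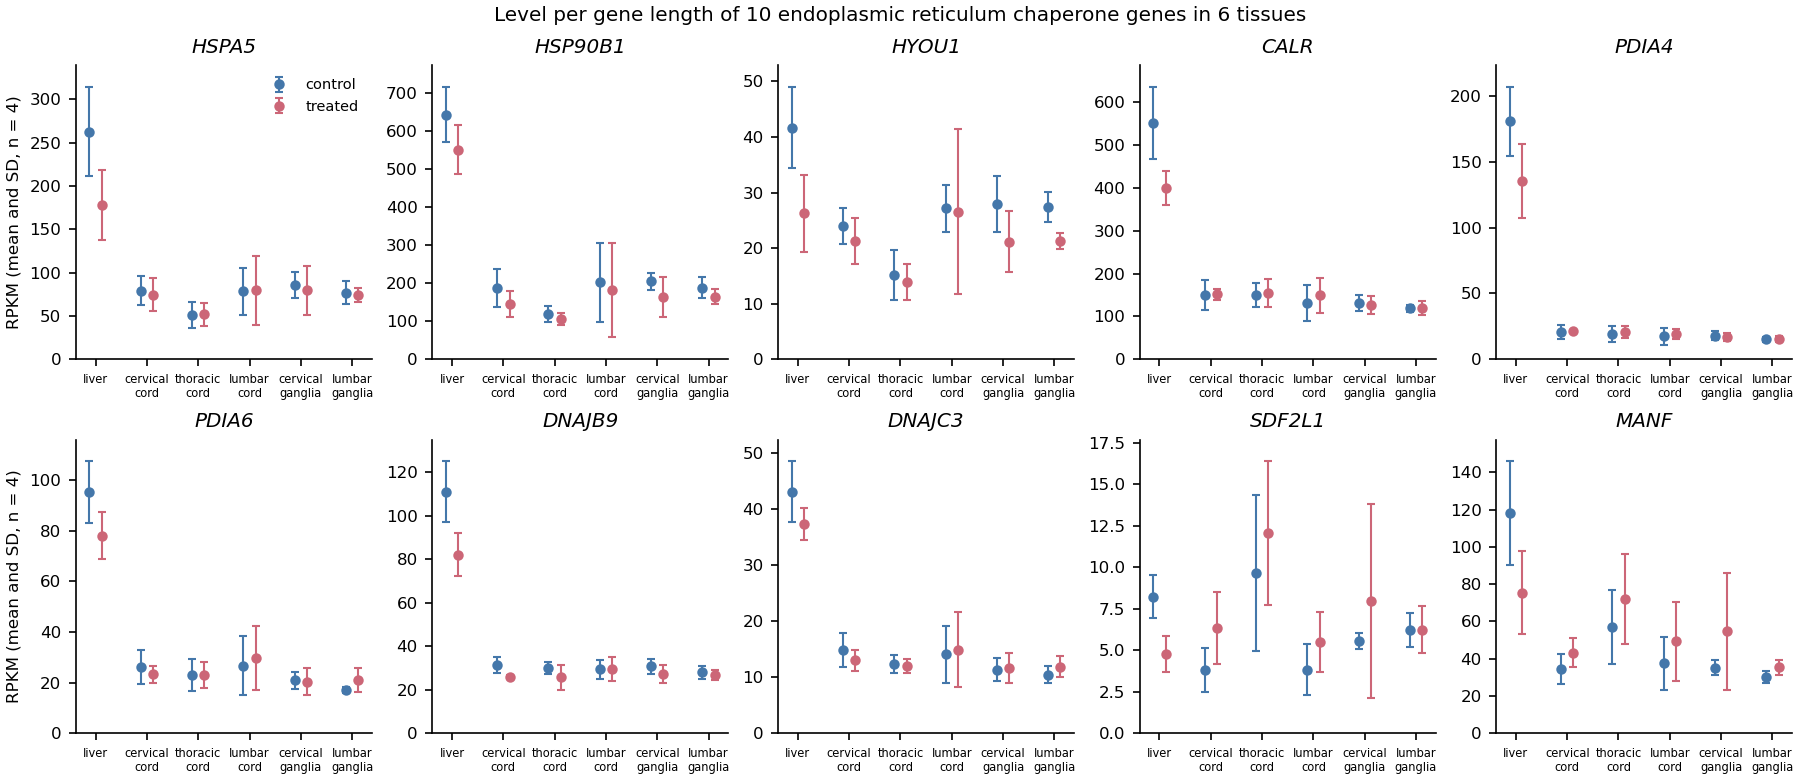
Level of each gene in RPKM (y axis, from 0) in 6 tissues (x axis), with control groups in blue and treated groups in red; points are means and bars SD over 4 animals. Control liver stands highest for every gene except SDF2L1, whose highest control mean of 9.64 RPKM is in thoracic cord.

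In a fit of the 24 control libraries with animal as block (edgeR quasi-likelihood test, Benjamini-Hochberg adjusted p under 0.05), all 10 genes were higher in liver than in cord, where 33.8% of 15008 genes were. The log2 differences ran from 0.68 for SDF2L1 (adjusted p = 0.0264) to 3.30 for PDIA4 (adjusted p = 2.12e-12). The SDF2L1 call was lost without control replicate 3 (0.49, adjusted p = 0.139) or 4 (0.61, adjusted p = 0.0514). In the treated animals, fitted in limma voom with animal as random block, 8 of the 10 passed. HYOU1 missed the threshold there (0.41, adjusted p = 0.0845) and SDF2L1 lay at -0.65. Over the alternatives other than leaving out an animal, this one included, 10396 to 12559 genes passed in either direction. Against ganglia, 9 of 10 were higher in liver, where 34.7% of all genes were, led again by PDIA4 at 3.47. SDF2L1, at 0.44, did not pass (adjusted p = 0.161), and in the treated animals HYOU1 did not pass either (0.29, adjusted p = 0.274). Without scaling for composition, the median of all genes moved from -0.19 to -1.27 in liver against cord and from -0.14 to -1.32 in liver against ganglia. On that scale the members' medians were 0.81 and 0.70, still above the median gene, but HYOU1 turned to -0.12 and -0.58 and SDF2L1 to -0.38 and -0.72.

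Cord and ganglia differed little in these genes. HYOU1 was higher in ganglia by 0.39 (adjusted p = 0.00858), where 29.5% of all genes were higher. DNAJC3 and PDIA6 were lower in ganglia, by log2 differences of -0.31 (adjusted p = 0.0190) and -0.36 (adjusted p = 0.0397), where 32.4% of all genes were lower. The other 7 genes did not pass, although HSPA5 and HSP90B1, at 0.28 and 0.30, passed in DESeq2, in limma voom and with median-ratio size factors, which called 65.3%, 63.4% and 61.8% of all genes. The calls rested on single animals: without control replicate 1 DNAJC3 and PDIA6 were lost (and HSP90B1 gained), without replicate 2 HYOU1 and PDIA6 were lost, and without replicate 3 DNAJC3 and PDIA6 were lost. With total counts DNAJC3 and PDIA6 did not pass (adjusted p = 0.16 and 0.205). In the treated animals HYOU1 and DNAJC3 did not pass (0.12 and -0.19, adjusted p = 0.579 and 0.227), PDIA6 did, and PDIA4 and CALR passed at -0.34 and -0.25. Over the alternatives other than leaving out an animal, this one included, 8391 to 9807 genes passed in either direction.

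The main question was whether the chaperones differed between treated and control animals. In liver all 10 lay lower in treated animals on average, by log2 differences of -0.20 to -0.78 with a median of -0.44, but none passed the test across all genes. Among all 12609 genes tested, 48.1% had a log2 difference below 0 and the median was 0.01.

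The BiP group had wide, mostly overlapping values. HSPA5 had 663.8, 471.5, 565.1 and 755.4 CPM in control replicates 1 to 4 and 381.9, 301.6, 485.5 and 498.2 CPM in treated replicates 1 to 4. Treated replicates 1 and 2 lay below every control, and treated 3 and 4 lay above control 2 alone. The log2 difference was -0.58 ± 0.16 (SE, edgeR adjusted p = 0.396). HYOU1 had 105.7, 82.3, 97.2 and 126.6 CPM in controls and 70.7, 43.2, 62.8 and 83.0 CPM in treated animals, and only treated replicate 4 reached the lowest control. HSP90B1, the most abundant member, had the second smallest difference: 1071.4, 811.5, 1004.7 and 1042.9 CPM in controls and 909.4, 704.6, 905.9 and 849.4 CPM in treated animals, or -0.22 ± 0.13.

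CALR and SDF2L1 were the 2 members whose groups did not overlap, 2 of 10 against 3.09% of all genes with every treated animal below every control. CALR had 691.2, 497.7, 509.9 and 556.4 CPM in control livers and 407.4, 360.5, 457.4 and 415.3 CPM in treated livers. Its highest treated animal thus lay under its lowest control, with a log2 difference of -0.46 ± 0.14. SDF2L1 had 3.96, 3.07, 3.59 and 4.54 CPM in controls and 2.23, 2.21, 2.82 and 1.57 CPM in treated animals. It had the largest difference of the 10, -0.78 ± 0.23, and the fewest counts.

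Among the remaining genes, MANF had 34.4, 27.1, 30.1 and 45.7 CPM in controls and 18.3, 15.96, 23.2 and 30.3 CPM in treated animals. Its treated replicate 4 overlapped the controls and the other 3 did not, for a log2 difference of -0.67 ± 0.17. The disulphide isomerase PDIA4 had 234 to 338 CPM in controls and 168 to 264 CPM in treated animals, and PDIA6 had 109.9 to 152 CPM and 94.5 to 128 CPM. Their log2 differences were -0.43 ± 0.11 and -0.28 ± 0.13. The cochaperone DNAJB9 had 72.5 to 98.9 CPM in controls and 55.6 to 74.6 CPM in treated animals (-0.43 ± 0.10), and DNAJC3 had 115 to 154 CPM and 110 to 129 CPM (-0.20 ± 0.11). In all 4 genes the 2 groups overlapped.

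**Figure D2:**
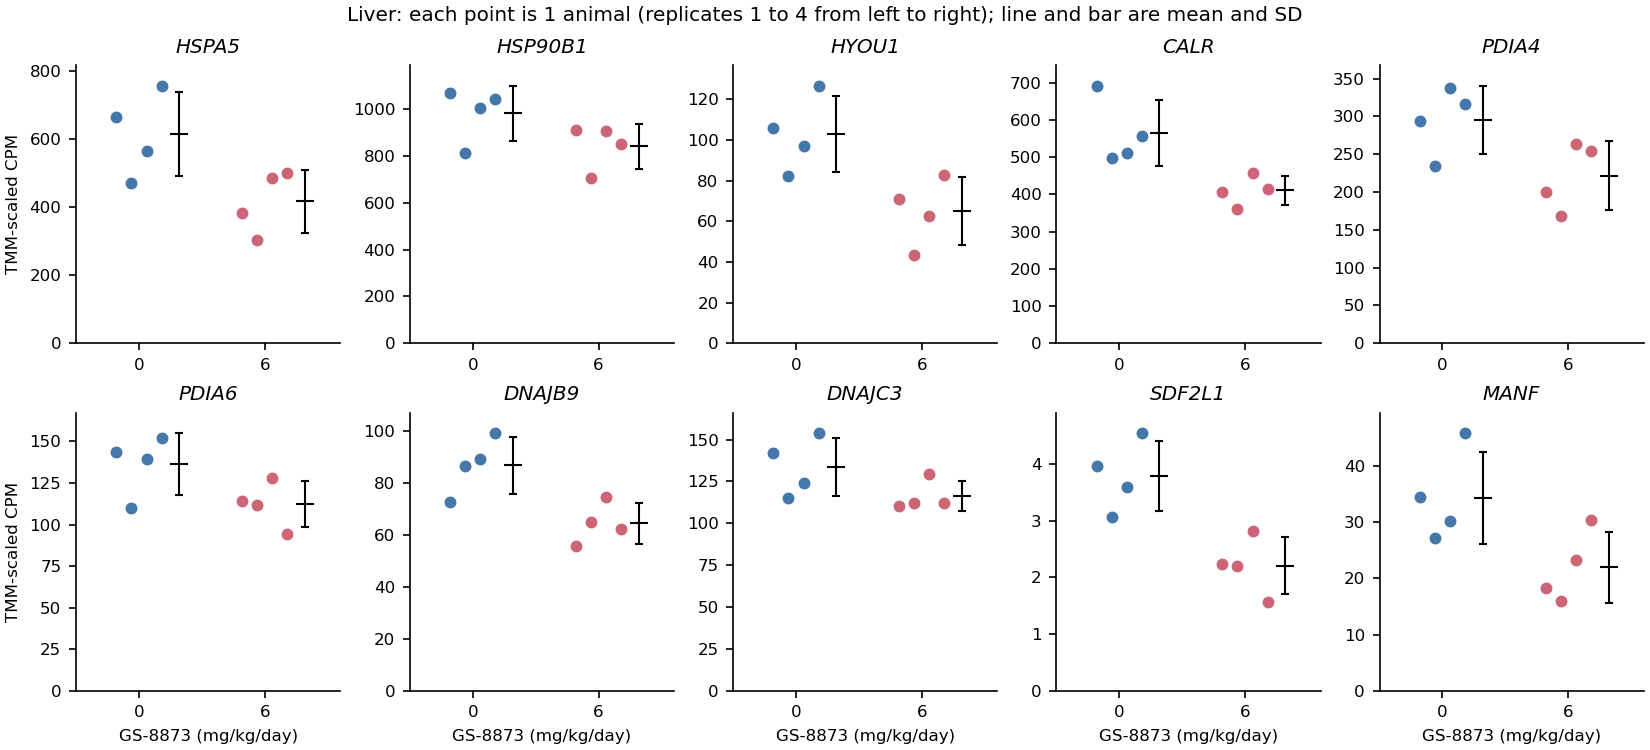
TMM-scaled CPM in liver (y axis, from 0) at 0 and 6 mg/kg/day of GS-8873 (x axis), 1 point per animal, with the mean and SD of 4 animals beside them. Treated points lie lower on average in all 10 genes, and the groups are fully separated in CALR and SDF2L1.

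By edgeR's quasi-likelihood test, 0 of 10 members and 0 of 12609 genes (0%) passed in liver, with adjusted p from 0.341 to 0.726 for the members. At an unadjusted p under 0.05, 7 of 10 members were lower, against 4.69% of all genes; the 3 others were HSP90B1, PDIA6 and DNAJC3. DESeq2 on the same counts called 5 members (HSPA5, HYOU1, MANF, PDIA4 and DNAJB9, adjusted p 0.0269 to 0.0491), all lower, among 146 genes called lower, or 1.18% of its 12364. The tools gave nearly the same sizes (HYOU1 -0.67 in both), and limma voom called 0 of 10. Most members varied together between animals of 1 group, so their 10 signs are not 10 independent results. With total counts in place of TMM scaling, the median of all genes in liver moved from 0.01 to 0.18 and that of the members from -0.44 to -0.27.

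Control replicate 2 had the lowest control level of 9 of the 10 genes and the highest mitochondrial share, 11.8% against 7.90 to 8.22% in the other controls. The share of all genes that were lowest in this control was not computed. Without control replicate 2 all 10 differences were still below 0, with a median of -0.50. Hepatocyte markers summed to 217592 to 244472 CPM in controls and 201125 to 211528 CPM in treated livers, with no overlap and 0 of 10 markers absent. Of these markers 8 of 10 had a log2 difference below 0, with a median of -0.13. ALB, their most abundant gene, had the lowest value, -0.48 ± 0.12 (adjusted p = 0.361). The markers of plasma cells, whose ER is large, were 5 of 7 below 0, but they summed to 156 to 251 CPM in controls and 256 to 292 CPM in treated livers. Most of that sum was SDC1, which hepatocytes also express, and JCHAIN had -0.25 ± 0.41. Of the Kupffer cell and macrophage markers 9 of 10 were below 0, with a median of -0.32, and their sums overlapped, at 226 to 1176 CPM in controls and 413 to 750.0 CPM in treated livers. The part of these marker lists in the chaperone values was not tested.

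The medians of the 4 other pathway lists in liver were also below 0 and nearer to it than that of the members, and no gene of these lists passed. Single genes ranged more widely, from -0.87 to 0.23 among the other folding enzymes. Of the sensors and transcription factors, 9 of 11 tested genes were below 0, with a median of -0.18. ERN1, which codes for IRE1, gave -0.21 ± 0.21, EIF2AK3 gave -0.25 ± 0.12 and ATF6 gave -0.18 ± 0.12. The stress transcription factors ATF4 and DDIT3 gave -0.20 ± 0.14 and -0.26 ± 0.17. XBP1 was not analysed here. Of the other folding enzymes and chaperones 20 of 27 were below 0 (median -0.15), of the degradation genes 15 of 20 (median -0.16), and of the genes for translocation into the ER 18 of 19 (median -0.18). HERPUD1, a degradation gene induced by ER stress, gave -0.59 ± 0.31, and its controls spread widely, from a mean of 266 CPM with an SD of 170.2 to 173 ± 44.2 CPM in treated livers (n = 4 each). The members' median of -0.44 was thus lower than that of each of these lists, a difference that was not tested.

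In spinal cord the 10 genes showed no common direction. Counts of the 3 cord regions were summed for each animal, and 5 members were above and 5 below 0, with a median of 0.01 beside 48.7% of all genes below 0 and a median of 0.01. By edgeR 0 of 10 members and 0 of 15002 genes (0%) passed, and 0 members had an unadjusted p under 0.05, as 3.49% of all genes did. DESeq2, which called 0.38% of all genes, and limma voom called 0 of 10 as well. HSPA5 had 452, 380, 271 and 272 CPM in control replicates 1 to 4 and 441, 362, 337 and 211 CPM in treated replicates 1 to 4, so the groups overlapped, with treated replicate 4 below every control. Its log2 difference was -0.02 ± 0.18.

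MANF and SDF2L1 had the largest differences in cord, and both lay above 0. MANF had 28.4, 31.2, 17.7 and 21.8 CPM in controls and 39.1, 25.01, 24.9 and 41.1 CPM in treated animals, a log2 difference of 0.42 ± 0.24 (adjusted p = 0.858). SDF2L1 had 5.60, 6.35, 3.06 and 5.03 CPM in controls and 7.83, 5.02, 6.87 and 9.74 CPM in treated animals, or 0.57 ± 0.31 (adjusted p = 0.858). In both genes treated replicates 1 and 4 lay above every control, as did treated replicate 3 in SDF2L1, and the groups overlapped. Without treated replicate 4, animal P0905, MANF gave 0.18 ± 0.19 and SDF2L1 0.36 ± 0.29.

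Region by region, MANF was above 0 in all 3 parts of the cord (0.35 to 0.42), and so was SDF2L1 (0.34 to 0.73). PDIA4 and CALR were also above 0 in all 3, by at most 0.17. HSP90B1, HYOU1 and DNAJB9 were below 0 in all 3, and the remaining 3 genes were mixed. The regions came from the same animals, so these are not 3 independent results. No member passed in any region with edgeR, DESeq2 or limma voom, where edgeR called 0% of all genes in each region and DESeq2 0.759% in cervical, 0.2% in thoracic and 0.0418% in lumbar cord. At an unadjusted p under 0.05 there were 0 members, beside 9.53%, 2.33% and 1.74% of all genes, so with 10 members a count of 0 is near the background. DNAJB9 in cervical cord was the 1 member without overlap: 62.4, 52.8, 52.2 and 46.9 CPM in controls and 44.5, 46.2, 44.01 and 42.96 CPM in treated animals, where 2.91% of all genes had every treated library below every control. Its log2 difference was -0.27 (adjusted p = 0.504).

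The 2 lumbar cord libraries without MOG stood above the other 6 in 8 of the 10 genes, a position not counted over all genes. HSPA5 had 574 CPM in the control and 699.1 CPM in the treated library of this kind, against 230 to 507 CPM in the rest. HYOU1 had 179 and 264 CPM against 90.3 to 167 CPM. MANF and SDF2L1 were the exceptions and lay within the range of the other 6. There was 1 such library in each group. Leaving out both moved the members' median from 0.10 to 0.08 in lumbar cord and from 0.01 to -0.06 in the summed cord.

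In the ganglia the 16 libraries were fitted together in limma voom with terms for region and sex and with the animal as random block. By this test 142 of 14535 genes (0.977%) passed, and 0 of 10 members did. Members were split again, 5 above and 5 below 0, with a median of 0.01, whereas 43.3% of all genes were below 0.

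HYOU1 was the member closest to the threshold in ganglia. In lumbar ganglia it had 170, 160, 154 and 137 CPM in control replicates 1 to 4 and 129.6, 109.6, 126 and 116 CPM in treated replicates 1 to 4, so every treated library lay below every control. That separation was found in 9.35% of all genes of lumbar ganglia. The log2 difference was -0.36 ± 0.09, and its edgeR adjusted p of 0.0736 missed the threshold, which 4.29% of all genes passed. DESeq2 called HYOU1 there (adjusted p = 0.0112), as it did 13.5% of genes. In cervical ganglia HYOU1 had 171, 175, 150 and 121 CPM in controls and 140, 128, 130 and 77.6 CPM in treated animals. There treated replicate 4 was lowest and the other 3 lay within the control range.

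Over both regions HYOU1 gave -0.38 ± 0.14 (adjusted p = 0.253). It passed when replicate number within region served as the block in place of animal (-0.37 ± 0.08, adjusted p = 0.0177), together with 5.87% of all genes. The general neuron markers also differed between the lumbar groups, with summed levels of 8484 to 9870 CPM in controls and 4521 to 6719 CPM in treated animals and 0 of 7 markers at 0. The sensory neuron markers overlapped there, with sums of 2254 to 2720 CPM in controls and 1445 to 3653 CPM in treated animals. The part of these marker lists in the HYOU1 value was not tested. At total counts the lumbar HYOU1 difference was -0.17 ± 0.09, while the median of all genes there moved from 0.05 to 0.24.

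The values of MANF and SDF2L1 in cervical ganglia rested on 1 animal. In cervical ganglia MANF had 22.5, 25.2, 19.4 and 24.4 CPM in controls and 31.4, 21.4, 24.8 and 70.7 CPM in treated animals. SDF2L1 had 5.90, 6.10, 5.68 and 5.23 CPM in controls and 6.09, 4.83, 4.82 and 18.5 CPM in treated animals. In both genes treated replicate 4, animal P0905, lay far above the other 7 libraries. With that library the log2 differences were 0.63 for MANF and 0.48 for SDF2L1 (edgeR adjusted p = 0.729 and 0.811), and without it 0.15 ± 0.17 and -0.16 ± 0.20. Over both ganglion regions they were 0.44 ± 0.26 and 0.21 ± 0.29, and without that animal 0.21 ± 0.13 and -0.03 ± 0.17. Animal P0905 gave no lumbar ganglia. SDF2L1 there was at 0.01 ± 0.21 (adjusted p = 0.980). MANF there had 20.3, 21.3, 21.3 and 17.1 CPM in controls and 25.2, 25.8, 23.4 and 19.9 CPM in treated animals, with 3 of the 4 treated libraries above every control. Its log2 difference there was 0.23 ± 0.11 (edgeR adjusted p = 0.270). With total counts in place of TMM it passed, at 0.43 (adjusted p = 0.0488), on a scale where 12.9% of all genes passed.

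The other members differed little between ganglion groups. HSP90B1 gave -0.30 ± 0.16 over both regions, and HSPA5 gave -0.12 ± 0.16, which became 0.02 ± 0.10 without animal P0905. CALR, PDIA4, PDIA6, DNAJB9 and DNAJC3 lay between -0.11 and 0.13. In cervical ganglia 0 of 10 members and 0 of 14173 genes (0%) passed with edgeR, and 0 members had an unadjusted p under 0.05, as 7.35% of all genes did. DESeq2, which called 1.72% of all genes there, and limma voom called 0 members as well. In lumbar ganglia 1 member, HYOU1, had an unadjusted p under 0.05 and a lower level, as did 12.5% of all genes.

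Of the 78 genes tested in the other pathway lists, 3 (3.85%) passed in lumbar ganglia by edgeR, a share near the 4.29% of all genes; 3.65% of all genes fell and 0.638% rose. CRELD1, an ER protein with disulphide isomerase activity, fell by 0.70 on the log2 scale, from 116 ± 8.51 to 71.3 ± 9.73 CPM (SD, n = 4; adjusted p = 0.0206). ERLEC1, a lectin of ER-associated degradation, fell by 0.42 (adjusted p = 0.0382), and EDEM3, a mannosidase of the same pathway, rose by 0.40 (adjusted p = 0.0472). These calls depended on single libraries: leaving out each of the 8 in turn, CRELD1 passed only without control replicate 4, treated replicate 1 or treated replicate 2, and ERLEC1 and EDEM3 only without treated replicate 1. The count over all genes fell to 18 without control replicate 3. ERN1, EIF2AK3, ATF6, ATF4, DDIT3 and HERPUD1 did not pass in ganglia or cord. Over both ganglion regions DDIT3 gave 0.03 ± 0.21 and HERPUD1 0.24 ± 0.24, and in summed cord they gave 0.38 ± 0.24 and -0.28 ± 0.31.

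**Figure D3:**
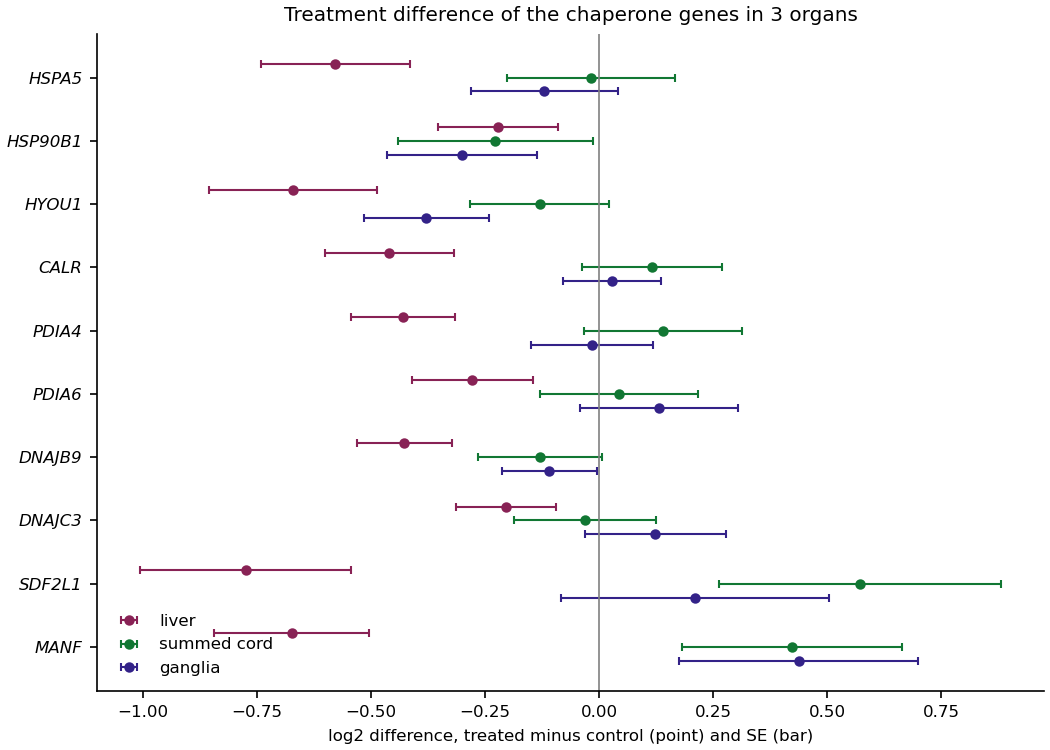
Log2 difference between treated and control animals (x axis; points, with bars of 1 SE) for each gene (y axis) in liver (purple), summed cord (green) and ganglia (blue). All 10 liver points lie below 0, between -0.20 and -0.78, whereas cord and ganglia points fall on both sides, with MANF and SDF2L1 farthest above 0.

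Whether the treatment difference varied between organs was tested directly in a limma voom fit of all 48 libraries with animal as random block. For liver minus cord, 9 of 10 members were below 0 with a median of -0.54, where 49% of all 15240 genes were below 0. No member passed, and 0.157% of all genes did. CALR gave -0.54 ± 0.16 (adjusted p = 0.276), MANF -1.02 ± 0.30 (adjusted p = 0.292) and SDF2L1 -1.39 ± 0.43 (adjusted p = 0.362). At an unadjusted p under 0.05, 5 of 10 members were lower, against 2.78% of all genes. With sample quality weights, which give libraries that stand apart less weight, these 3 genes passed, at adjusted p of 0.00584, 0.000904 and 0.000904, and 3.55% of all genes passed.

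For liver minus ganglia, 9 of 10 members were again below 0, with a median of -0.38, as were 50.7% of all genes. No member passed, where 0.0328% of all genes did, and 3 of 10 were lower at an unadjusted p under 0.05, against 2.34%. MANF gave -1.08 ± 0.32 (adjusted p = 0.268) and HSPA5 -0.42 (adjusted p = 0.999). With quality weights MANF, CALR and PDIA6 passed (adjusted p = 0.00786, 0.0212 and 0.0480), among 2.96% of all genes. Both comparisons share the liver libraries. For ganglia minus cord no member passed, where 0.308% of all genes did, and 0 had an unadjusted p under 0.05, as 9.8% of all genes did; with quality weights SDF2L1 passed (adjusted p = 0.0256) among 13.4% of genes.

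In several cord and ganglion libraries with a high mitochondrial share, MANF or SDF2L1 was high while most other members were low. In cervical ganglia, animal P0905 had 23.01% mitochondrial counts, against 6.97 to 13.4% in the other 7 libraries. It had the highest MANF and SDF2L1 and the lowest level of 7 of the other 8 genes. This library also had the lowest total of all libraries (35453786 counts) and the lowest AVIL of the ganglia (405 CPM). The share of all genes that were highest or lowest in it was not computed. HSPA5 had 226 CPM there against 378 to 549 CPM, and HYOU1 77.6 CPM against 121 to 175 CPM. CALR, at 279.7 CPM, was the exception and lay inside the range of the rest.

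The same animal had the highest MANF and SDF2L1 in cervical cord (34.4 and 8.82 CPM) and in lumbar cord (44.5 and 8.37 CPM), and the lowest HSPA5, HSP90B1, HYOU1, DNAJB9 and DNAJC3 in both. In thoracic cord the 3 libraries with mitochondrial shares of 32.2 to 37.3% had 11.2 to 14.04 CPM of SDF2L1, above the 3.53 to 8.84 CPM of the other 5. They had less HYOU1 (36.6 to 51.5 CPM against 65.9 to 78.8) and less HSPA5 (134 to 196 CPM against 197 to 285). One of these 3 libraries was a control. The limit for a high share was 30% in thoracic cord and 20% in the other tissues named. Control replicate 2 of thoracic cord, at 25.9%, was thus among the other 5, although animal P0905 had 25.7% in cervical cord. At that share its SDF2L1 was at most 8.84 CPM, its HYOU1 at least 65.9 CPM and its HSPA5 at least 197 CPM. MANF overlapped there, at 36.7 to 52.6 against 17.6 to 38.04 CPM. In liver, where the mitochondrial share stayed at or under 11.8%, animal P0905 did not have the highest MANF or SDF2L1, and its SDF2L1 was the lowest of the 8. The part of the mitochondrial share in these levels was not tested, and MANF and SDF2L1 also share the shortest gene models.

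**Figure D4:**
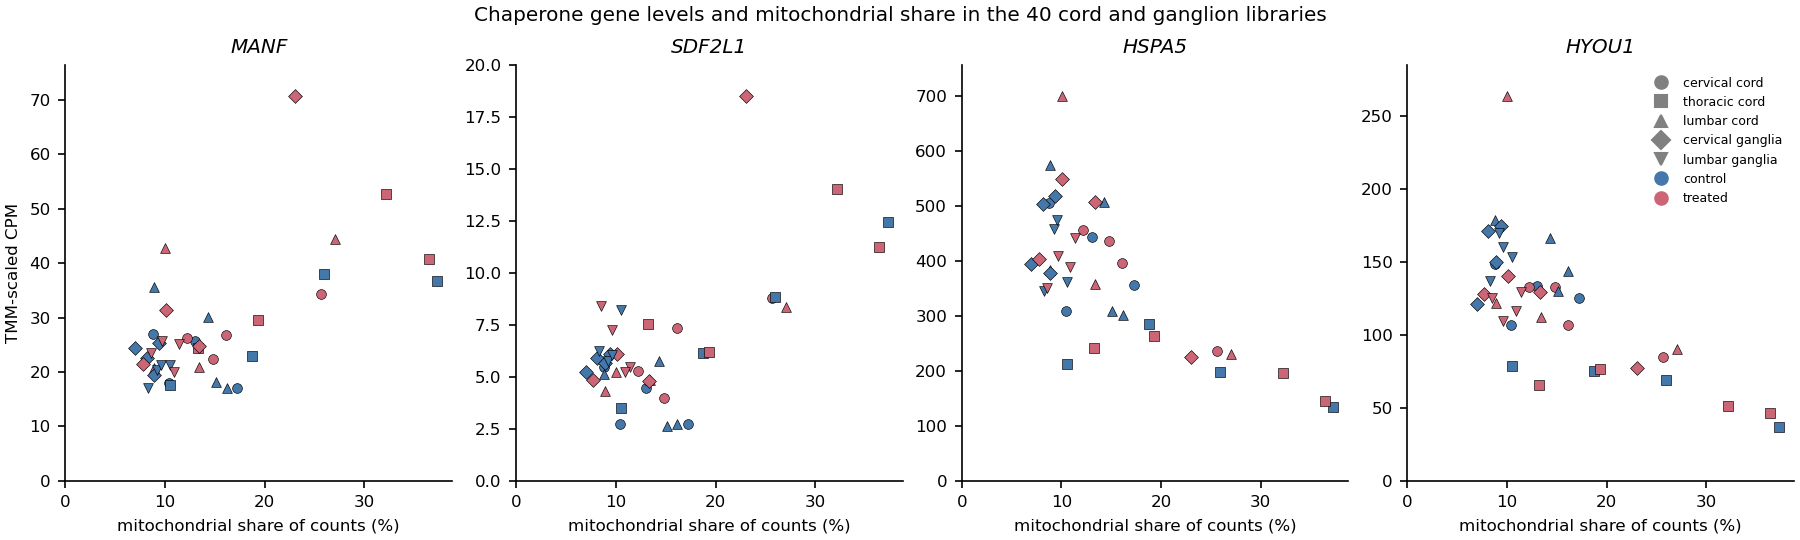
TMM-scaled CPM of 4 genes (y axes, from 0) against the mitochondrial share of counts (x axis, percent) in 40 cord and ganglion libraries, with controls in blue, treated in red and 1 marker shape per tissue; each tissue was scaled in its own fit. The highest values of MANF and SDF2L1, 70.7 and 18.5 CPM, are both in the cervical ganglion library at 23.01%, in which HSPA5 and HYOU1 are at 226 and 77.6 CPM.

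MANF and SDF2L1 stood apart from the other members across libraries of cord and ganglia, which include the libraries of high mitochondrial share described above. With group means removed, each gene was correlated with the mean log2 CPM of the other 9, as a description with no test, across libraries that share animals and differ in cell makeup and depth. In liver (8 libraries) Pearson's r ran from 0.22 for DNAJB9 and 0.36 for SDF2L1 to 0.95 for HSPA5. In cord (24 libraries) 8 genes had 0.70 to 0.94, whereas MANF had 0.33 and SDF2L1 0.09. In ganglia (16 libraries) the same 8 genes had 0.51 to 0.94, and MANF and SDF2L1 had -0.29 and -0.59. With each other, MANF and SDF2L1 had 0.87 in cord, 0.88 in ganglia and 0.01 in liver. The ganglion libraries include cervical treated replicate 4 (animal P0905), which was highest in both genes and low in most others. No correlation without that library was computed.

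Outside the lists, the genes whose pattern was most like the members' mean differed between organs. In liver these were CPD, SLC35B1, STT3A, GMPPA and INTS1 (r from 0.95 to 0.97 over 8 libraries, both groups included, among 10921 genes). STT3A codes for a catalytic subunit of the oligosaccharyltransferase, which glycosylates proteins as they enter the ER. In cord, with region means removed, they were PLOD3, RHBDD1, RBM12, SELENON and EXT2 (r from 0.93 to 0.96 over 24 libraries). PLOD3 is a collagen-modifying enzyme of the ER. In ganglia they were PDCL, POLR3G, WNT9A, DTD2 and NTRK3 (r from 0.77 to 0.81 over 16 libraries). No gene was among the 5 most similar in more than 1 organ.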

How the data were processed

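The authors deposited raw counts per gene name. Per the file headers, these came from featureCounts 1.4.6-p1 with the annotation of Ensembl release 94 (Macaca_fascicularis 5.0 build), run without options for read pairs or strand, although the labels name a stranded kit and paired reads of 50 bases. The submitters' processing notes name STAR 2.5.3a. Groups follow the labels' tissue and dose. The deposited counts were tested per tissue, and for cord summed per animal, in edgeR 4.0.16 (R 4.3.3; TMM, filterByExpr, robust quasi-likelihood, sex as covariate). Ganglia and organ differences used limma 3.58.1 voom with animal as random block (statmod 1.5.0; correlations 0.718 and 0.199). Control tissues used edgeR with animal as fixed block. Benjamini-Hochberg adjustment ran over all genes tested; the threshold was 0.05, and tests were two-sided. DESeq2 1.42.0, other scalings and filters, and leaving out libraries were alternatives. All 10 members passed every filter on low counts.

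CPM are TMM-scaled within a fit (single marker genes and marker lists of the libraries: total counts). RPKM use the deposited gene length and 1 scaling of all 48 libraries. Errors are SE of log2 differences or SD of levels. The members are named whatever their p, as are 7 pathway genes and any gene of the 4 pathway lists past the threshold (at most 5 per list). In addition, the 5 genes most like the members' mean in each organ were named (mean of at least 1 CPM). Members and lists were chosen with earlier results of these data known. Replicate numbers pair different animals. In lumbar cord they met the pairing rule (correlations of deviations 0.163 to 0.907), and in the other 5 tissues they did not. The value of 0.907 was between control and treated replicate 1, the libraries almost without MOG. The fitting code was tested on simulated data.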

Additional observations from a re-analysis of the deposited data

Results flagged for a closer look

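In 6 of 120 groups of 4 libraries, 1 library's gap to its nearest neighbour exceeded Dixon's 95% critical value, and chance gives about 1 in 20, or 6. In liver, DNAJC3 was at 129 CPM in treated replicate 3, against 110 to 112 CPM in the other 3. In treated animal P0905 (replicate 4), CALR was at 293 CPM in cervical cord against 346 to 358 CPM, and at 192 CPM in thoracic cord against 288 to 313 CPM. In the same animal's cervical ganglia HYOU1 was at 77.6 CPM against 128 to 140 CPM. In thoracic cord, HYOU1 was at 36.6 CPM in control replicate 4 against 69.2 to 78.8 CPM. PDIA6, whose exons overlap another gene, was at 92.7 CPM in lumbar ganglia of treated replicate 1, against 59.5 to 63.0 CPM. In 5 of these 6 cases, all but DNAJC3 in liver, the library had the highest mitochondrial share of its group, and the part of that share was not tested.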

How the results depend on the processing

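The liver direction kept its sign in all 10 genes under all 18 alternatives, with medians of -0.50 to -0.39 when single animals were left out; whether any gene passed depended on the tool (5 with DESeq2). In lumbar ganglia 1 member passed with DESeq2 and 1 with total counts, which moved the median to 0.21. In ganglia 1 member passed with the replicate block in place of animal, among 5.87% of all genes, although numbers pair different animals there. Without the animal block 1 member passed, among 6.98% of all genes, with the libraries of an animal treated as independent. In lumbar cord, where the numbers met the pairing rule although they too pair different animals, the block changed no call. Quality weights gave 3 members in liver minus cord, 3 in liver minus ganglia and 1 in ganglia minus cord; without single animals the liver minus cord median ran from -0.70 to -0.31, the latter without control animal P0504. Among control tissues the medians were 0.81 (total counts) and 1.48 (treated animals) for liver against cord, and 0.70 and 1.64 for liver against ganglia. For ganglia against cord 5 members passed with DESeq2, limma voom or median-ratio factors. Without single animals 1 to 3 members passed, where 7366 to 8929 of all genes did.

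Signs that turned were mostly near 0, and the ranges here leave out 1 replicate or animal at a time. In summed cord PDIA6 ran from -0.0754 to 0.155, HSPA5 from -0.174 to 0.0814 and DNAJC3 from -0.143 to 0.0637. PDIA6 there gave -0.0677 without lumbar cord and -0.0367 without the libraries lacking MOG, HSPA5 gave 0.0258 (total counts) and 0.00128 (mitochondrial share up to 30%), and DNAJC3 gave 0.0048 (total counts). In ganglia CALR ran from -0.0131 to 0.0557, PDIA4 from -0.059 to 0.0133, HSPA5 from -0.239 to 0.0171 and SDF2L1 from -0.0325 to 0.413, and total counts gave PDIA4 0.0835. SDF2L1 in cervical ganglia ran from -0.163 (without treated replicate 4) to 0.685. Total counts turned HYOU1 in liver to -0.118 against cord and -0.584 against ganglia, SDF2L1 to -0.378 and -0.722, and DNAJB9 in ganglia against cord to 0.0587. In treated animals SDF2L1 was -0.65 in liver against cord, -0.612 in liver against ganglia and -0.0374 in ganglia against cord, where it ran from -0.0444 to 0.348 without single controls. The cause of these changes was not tested.

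Counts over all genes moved more. DESeq2 called 190 genes in liver, 108, 28 and 6 in cervical, thoracic and lumbar cord, 57 in summed cord and 225 in cervical ganglia, where edgeR called 0. In lumbar ganglia (612) counts ran from 18 to 670 without single replicates and from 64 to 1843 otherwise, and in ganglia (142) from 3 to 967 and from 0 to 1015. With quality weights the organ differences had 541, 2048 and 451 calls. With 4 animals a group, SDF2L1 (86 counts at the lowest) had the least precise level.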
